A study of Mus musculus with 6 samples.

Results

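The genes described here are 10 matrix proteases, inhibitors and regulators of proteolysis: Mmp2, Mmp14, Timp1, Timp2, Timp3, Adamts1, Adamts5, Adamts9, Fap and Reck. They were chosen by gene symbol, and all 10 were found among the 18810 genes of the deposited expression table. RNA was sequenced from atrioventricular canal (AVC) regions of 3 Scx-/- and 3 Scx+/+ littermate mouse embryos on embryonic day 15.5 (E15.5), when the valve primordia are being remodelled. All 6 embryos carried the C57BL/6 strain label, and no treatment was given to either genotype. The Scx-/- embryos lacked scleraxis, a basic helix-loop-helix transcription factor, and the labels name no Cre or promoter that would limit the loss to the valves. Each dissected region held the mitral, tricuspid and aortic valves together and was not sorted, so a level is an average over all cell types in it.

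Valve remodelling turns a swollen, hyaluronan-rich cushion into a thin, layered leaflet, and this requires controlled breakdown of matrix. Mmp14 is a membrane-bound collagenase that, together with Timp2, activates the secreted gelatinase Mmp2, and the other Timp proteins and Reck restrain metalloproteinases. Adamts1, Adamts5 and Adamts9 are secreted proteases that cut versican, the main proteoglycan of the cushions, and Fap is a membrane serine protease of activated fibroblasts.

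No member differed between the genotypes at an unadjusted p below 0.05, and each 95% interval of the difference included 0. One-way analysis of each gene by its own spread called 1 member on RPKM, Adamts9, and 2 on log2 values, Adamts9 and Fap, and limma without its intensity trend called Fap. Of all genes those fits called 4.51%, 4.60% and 3.43%. Fap was higher in every Scx-/- library than in any Scx+/+ library, and Adamts9 was lower in every Scx-/- library, whereas the other 8 members overlapped between the genotypes. The value used throughout is RPKM, reads scaled by the exon length of the gene and by the sequencing depth of the library, so that levels can also be compared between genes. Fold changes are Scx-/- minus Scx+/+ on the log2(RPKM + 0.1) scale from limma, fitted to all genes, with Benjamini-Hochberg adjustment over the 18810 genes. In the same fit 3.89% of all genes were called at an unadjusted p below 0.05, with 2.82% higher and 1.06% lower in Scx-/-, and 0 passed an adjusted p below 0.05. Separation of all 3 libraries of a genotype from all 3 of the other was seen in 9.5% of genes, 7.19% higher and 2.31% lower, so 1 member in each direction out of 10 is to be read against those shares.

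The libraries held 46429975 to 68571021 reads by recovery from the table, and the smallest count for any member in any library was 81 reads. The library labelled Scx-/- replicate 3 and that labelled Scx+/+ replicate 2 stood apart in an earlier clustering of these data, which is not shown here. Over 13827 genes their deviations from the genotype means gave r of 0.32, the highest for any Scx-/- library with any Scx+/+ library. Over the whole gene, Scx itself had 33.6, 18.6 and 82.9 RPKM in Scx-/- replicates 1 to 3 and 29.5, 58.3 and 26.0 RPKM in Scx+/+ replicates 1 to 3, a log2 fold change of 0.07 (SE 0.51, adjusted p = 0.996), and genotypes are given as labelled. The study checked the loss at exon 1 of Scx, which a gene-level value does not resolve. The valve mesenchyme markers were present, with Postn, a matricellular protein of valve mesenchyme, at 161 to 387 RPKM. Of the transcription factors in that marker list, Tbx20 was at 34.5 to 62.9 RPKM. The others were far lower, with Prrx1 at 2.23 to 4.20, Sox9 at 1.26 to 3.36 and Twist1 at 1.46 to 2.62 RPKM. The median log2 fold change of all genes was 0.10 and 63.8% of genes lay above 0, so changes are also given after each library was centred on its median log2 ratio (centred values). With 3 libraries against 3, the exact permutation test cannot give a p below 0.1.

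**Figure D1:**
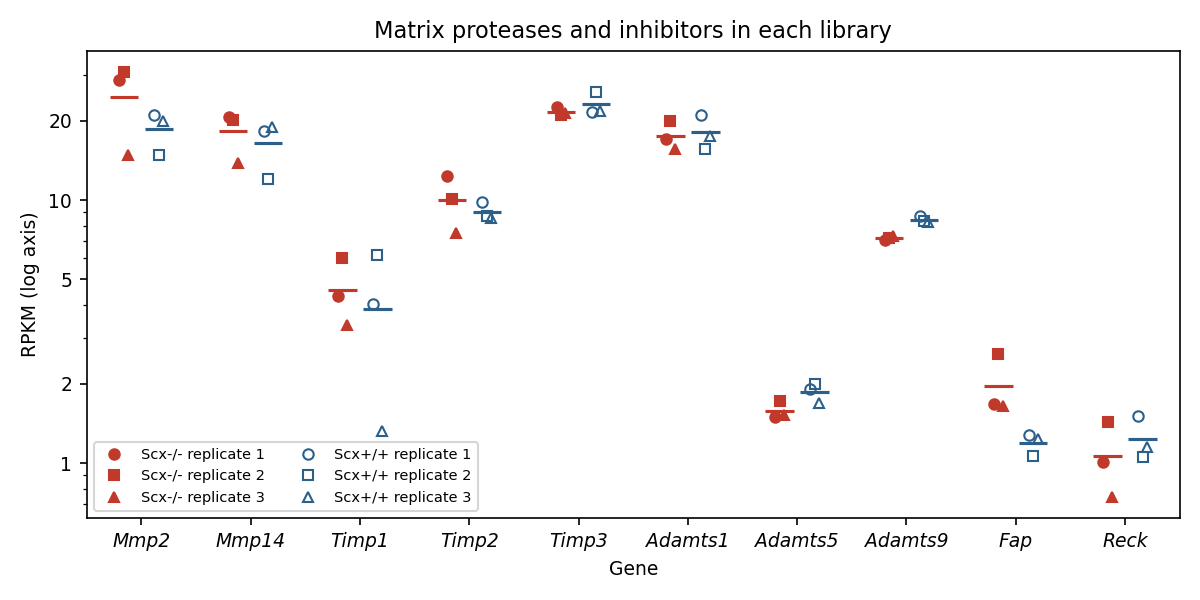
RPKM (log axis) of the 10 genes in each of the 3 Scx-/- libraries (filled red symbols) and 3 Scx+/+ libraries (open blue symbols). Symbol shape marks the replicate number and horizontal bars are genotype means. Timp3, Mmp2, Adamts1 and Mmp14 lie at 12.1 to 30.7 RPKM and Adamts5, Fap and Reck at 0.746 to 2.59 RPKM, and only Adamts9 and Fap have genotypes that do not overlap.

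The levels fell into a high, a middle and a low range. Averaged over the 6 libraries, Timp3 was the most abundant at 22.4 RPKM, followed by Mmp2 at 21.7, Adamts1 at 17.8 and Mmp14 at 17.4 RPKM. Timp3 (21.1 to 25.8 RPKM) overlapped with Mmp2 alone among these and lay above Adamts1 and Mmp14 in all 6 libraries, ranking first in 4 and second, after Mmp2, in 2. Mmp2, Adamts1 and Mmp14 overlapped with each other. Timp2 (9.51 RPKM) ranked 5 and Adamts9 (7.80 RPKM) ranked 6 in all 6 libraries. Timp1 (4.20 RPKM) came next, and its lowest library reached into the range of the genes below it. Adamts5 (1.73 RPKM), Fap (1.58 RPKM) and Reck (1.15 RPKM) were the lowest and overlapped with each other.

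Because Scx binds DNA as a basic helix-loop-helix factor, the promoters were searched for the E-box CANNTG, the hexamer read by that family, which is the same on both strands. RefSeq promoter windows of 300 bases (250 before and 50 after the gene start, GRCm38.p6) were held for 7 members, Mmp14, Timp1, Timp2, Timp3, Adamts1, Adamts9 and Reck, but not for Mmp2, Adamts5 and Fap. At least 1 E-box stood in 5 of the 7, while 72.3% of the 32851 promoters of the same length hold at least 1. A match is a description of the letters and not evidence of binding. The 250 bases before the start are shown for Mmp14 (chr14:54431348-54431597, plus strand) and Timp2 (chr11:118355412-118355661, minus strand), which act with Mmp2, and for Adamts9 (chr6:92943535-92943784, minus strand), whose genotypes did not overlap. Capitals mark the E-boxes.
Mmp14: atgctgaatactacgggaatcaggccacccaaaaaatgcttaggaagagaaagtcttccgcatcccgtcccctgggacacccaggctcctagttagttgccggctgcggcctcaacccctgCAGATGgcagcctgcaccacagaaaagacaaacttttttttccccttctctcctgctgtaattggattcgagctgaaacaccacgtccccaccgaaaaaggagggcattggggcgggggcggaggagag
Timp2: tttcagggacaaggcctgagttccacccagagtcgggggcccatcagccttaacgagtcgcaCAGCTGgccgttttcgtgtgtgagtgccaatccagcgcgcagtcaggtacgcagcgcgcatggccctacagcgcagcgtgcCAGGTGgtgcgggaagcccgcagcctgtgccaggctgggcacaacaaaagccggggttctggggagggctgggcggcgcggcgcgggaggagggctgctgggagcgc
Adamts9: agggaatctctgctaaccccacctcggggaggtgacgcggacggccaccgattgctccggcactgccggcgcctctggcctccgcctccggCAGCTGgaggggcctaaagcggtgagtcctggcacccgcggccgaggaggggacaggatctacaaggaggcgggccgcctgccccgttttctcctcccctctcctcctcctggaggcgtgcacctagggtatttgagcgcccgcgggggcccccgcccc
The E-box of Mmp14 reads CAGATG and begins 129 bases before the start, and that of Adamts9 reads CAGCTG and begins 159 bases before it. Timp2 has CAGCTG at 188 bases and CAGGTG at 107 bases before its start. Timp3 has CACCTG at 232 and CAACTG at 60 bases, Reck has CAGCTG at 133 bases, and the windows of Timp1 and Adamts1 hold none.

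Among the matrix metalloproteinases, Mmp2 (ENSMUSG00000031740, mm9 chr8:95351227-95377316, plus strand, 13 annotated exons) is a secreted gelatinase that degrades basement membrane and denatured collagen. Its level was 28.6, 30.7 and 14.9 RPKM in Scx-/- replicates 1 to 3 and 21.1, 14.9 and 20.0 RPKM in Scx+/+ replicates 1 to 3. The 2 highest values were both Scx-/-, while Scx-/- replicate 3 was level with Scx+/+ replicate 2 at the bottom, so the genotypes overlapped. The means were 24.7 ± 8.59 and 18.6 ± 3.28 RPKM (SD, n = 3 each). The log2 fold change was 0.35 (SE 0.29, 95% interval -0.29 to 1.00, adjusted p = 0.967) and 0.24 after centring, and the exact permutation p was 0.4 (two-sided). The value depended on single libraries, at 0.68 without Scx-/- replicate 3 (unadjusted p = 0.0162 in limma), 0.16 without Scx-/- replicate 2, 0.21 without Scx-/- replicate 1 and 0.20 without Scx+/+ replicate 2.

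Mmp14 (ENSMUSG00000000957, chr14:55050441-55060095, plus strand, 10 exons) encodes the membrane-bound activator of pro-Mmp2. It was at 20.7, 20.2 and 13.9 RPKM in the Scx-/- libraries and 18.4, 12.1 and 19.0 RPKM in the Scx+/+ libraries. The lowest Scx-/- value was replicate 3 and the lowest Scx+/+ value replicate 2, as for Mmp2. The means of 18.3 ± 3.81 and 16.5 ± 3.85 RPKM (SD, n = 3 each) gave a log2 fold change of 0.15 (SE 0.24, 95% interval -0.39 to 0.70, adjusted p = 0.972). Its direction turned without Scx+/+ replicate 2, at -0.06, and it was 0.34 without Scx-/- replicate 3. The ratio of Mmp2 to Mmp14 was 1.38, 1.52 and 1.07 in Scx-/- and 1.15, 1.24 and 1.05 in Scx+/+ replicates 1 to 3, again overlapping.

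The Timp genes encode the secreted inhibitors that occupy the metalloproteinase active site. Timp3, which binds to the matrix and also inhibits ADAM and ADAMTS proteases, was the steadiest member, with a coefficient of variation of 7.73% over the 6 libraries. Timp3 (ENSMUSG00000020044, chr10:85763117-85812251, plus strand, 8 exons) was at 22.6, 21.1 and 21.4 RPKM in Scx-/- and 21.6, 25.8 and 21.9 RPKM in Scx+/+. Its means of 21.7 ± 0.790 and 23.1 ± 2.33 RPKM (SD, n = 3 each) differed by -0.09 on the log2 scale (SE 0.16, 95% interval -0.44 to 0.27, adjusted p = 0.980). That interval is the narrowest among the 10 genes. Of the Timp3 exon bases, 1733 (21.3%) are shared with Syn3 on the opposite strand, listed at 6.66 to 8.38 RPKM, and where counting did not use strand the reads of the pair cannot be told apart.

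Timp2 (ENSMUSG00000017466, chr11:118162383-118217054, minus strand, 6 exons) both inhibits metalloproteinases and forms the bridge through which Mmp14 binds pro-Mmp2. Its level was 12.3, 10.1 and 7.51 RPKM in Scx-/- and 9.84, 8.68 and 8.55 RPKM in Scx+/+. The Scx-/- libraries spanned the whole range, with the Scx+/+ libraries inside it. The means were 9.99 ± 2.42 and 9.02 ± 0.709 RPKM (SD, n = 3 each), a log2 fold change of 0.12 (SE 0.22, 95% interval -0.38 to 0.62, adjusted p = 0.980). It was -0.05 without Scx-/- replicate 1 and 0.31 without Scx-/- replicate 3. The Mmp2 to Timp2 ratio was 2.32, 3.04 and 1.98 in Scx-/- and 2.14, 1.72 and 2.33 in Scx+/+, and the Mmp14 to Timp2 ratio was 1.68, 2.0 and 1.85 against 1.87, 1.39 and 2.23. Neither ratio separated the genotypes.

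Timp1 (ENSMUSG00000001131, chrX:20447292-20451861, plus strand, 6 exons), the X-linked inducible inhibitor, varied most, with a 4.63-fold range. It stood at 4.33, 6.00 and 3.36 RPKM in Scx-/- and 4.03, 6.16 and 1.33 RPKM in Scx+/+. Replicate 2 of each genotype was highest, and Scx+/+ replicate 3 was the lowest, with 81 reads against 178 to 357 in the others. The means of 4.56 ± 1.34 and 3.84 ± 2.42 RPKM (SD, n = 3 each) gave a log2 fold change of 0.44 (SE 0.50, 95% interval -0.69 to 1.58, adjusted p = 0.967). Without Scx+/+ replicate 3 it was -0.17 in limma, so its direction depends on that library. Xist, the RNA of the inactive X chromosome, was listed at 21.7 and 12.7 RPKM in replicate 2 of Scx-/- and of Scx+/+ and at the fill-in value of 0.0949 RPKM in the other 4, and its part in the Timp1 levels was not tested. Of the summed RPKM of Timp1, Timp2 and Timp3, Timp3 made up 56.8% to 68.9% and Timp1 4.19% to 16.1%.

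Reck (ENSMUSG00000028476, chr4:43888402-43957678, plus strand, 23 exons) encodes a membrane-anchored inhibitor of Mmp2, Mmp14 and other metalloproteinases. It was the lowest member, at 1.01, 1.43 and 0.746 RPKM in Scx-/- and 1.51, 1.05 and 1.15 RPKM in Scx+/+, on 213 to 458 reads. The highest library was Scx+/+ and the lowest Scx-/-, and the genotypes overlapped between them. The means were 1.06 ± 0.345 and 1.24 ± 0.238 RPKM (SD, n = 3 each), with a log2 fold change of -0.23 (SE 0.37, 95% interval -1.06 to 0.60, adjusted p = 0.972). It was -0.02 without Scx-/- replicate 3, -0.09 without Scx+/+ replicate 1 and -0.45 without Scx-/- replicate 2.

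The 3 ADAMTS genes among the members had mean levels in Scx-/- below those in Scx+/+, and none was called by limma, while one-way analysis called Adamts9. Adamts1 (ENSMUSG00000022893, chr16:85794072-85803358, minus strand, 10 exons), the most abundant of them, was at 17.1, 20.0 and 15.6 RPKM in Scx-/- and 21.1, 15.6 and 17.6 RPKM in Scx+/+. The genotypes covered nearly the same range, with means of 17.6 ± 2.24 and 18.1 ± 2.77 RPKM (SD, n = 3 each) and a log2 fold change of -0.04 (SE 0.19, 95% interval -0.46 to 0.38, adjusted p = 0.995). Without Scx-/- replicate 3 or Scx+/+ replicate 1 it was 0.04 or 0.08. Adamts5 (ENSMUSG00000022894, chr16:85858415-85901370, minus strand, 8 exons) lies 55056 bases away on the same strand. It was at 1.49, 1.72 and 1.53 RPKM in Scx-/- and 1.91, 2.01 and 1.70 RPKM in Scx+/+. Only Scx-/- replicate 2 exceeded the lowest Scx+/+ library, and the means were 1.58 ± 0.124 and 1.87 ± 0.159 RPKM (SD, n = 3 each). The log2 fold change was -0.23 (SE 0.27, 95% interval -0.85 to 0.39, adjusted p = 0.967) and -0.34 after centring. The ratio of Adamts1 to Adamts5 was 11.4, 11.6 and 10.2 in Scx-/- and 11.0, 7.78 and 10.4 in Scx+/+.

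Adamts9 (ENSMUSG00000030022, chr6:92722693-92893486, minus strand, 41 annotated exons) was the member with the least spread within a genotype. It was at 7.06, 7.19 and 7.32 RPKM in Scx-/- and 8.68, 8.30 and 8.24 RPKM in Scx+/+, on 4629 to 7082 reads. Every Scx-/- library lay below every Scx+/+ library, with means of 7.19 ± 0.130 and 8.41 ± 0.237 RPKM (SD, n = 3 each). The log2 fold change was -0.22 (SE 0.17, 95% interval -0.61 to 0.17, adjusted p = 0.967; unadjusted 0.229), and the exact permutation p was 0.1, the smallest this design allows. Centring moved the log2 fold change to -0.33, at an unadjusted p of 0.0689 in limma. One-way analysis put Adamts9 past the unadjusted threshold, at 0.00147 on RPKM and 0.00126 on log2 values, while limma, which draws the spread of a gene towards that of genes of similar level, did not. Adamts9 shares 1381 exon bases (11.0%) with A730049H05Rik and 424 (3.39%) with Gm15737, both on the opposite strand and listed at 1.36 to 2.40 and 1.46 to 2.44 RPKM.

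Fap (ENSMUSG00000000392, chr2:62339000-62412132, minus strand, 27 exons) encodes fibroblast activation protein, a membrane serine protease that cleaves denatured collagen. It was at 1.67, 2.59 and 1.66 RPKM in Scx-/- and 1.28, 1.07 and 1.24 RPKM in Scx+/+, on 281 to 982 reads. All 3 Scx-/- libraries exceeded all 3 Scx+/+ libraries, and Scx-/- replicate 2 was well above the others. The means of 1.97 ± 0.534 and 1.20 ± 0.111 RPKM (SD, n = 3 each) gave the largest fold change of the 10, 0.65 on the log2 scale (SE 0.31, 95% interval -0.06 to 1.36). The unadjusted p of 0.0679 missed the threshold, the adjusted p was 0.967, and the exact permutation p was 0.1. After centring the log2 fold change was 0.54 at an unadjusted p of 0.110, and without Scx-/- replicate 2 it was 0.45. Fap passed the unadjusted threshold at 0.0354 in limma without the trend and at 0.0388 in one-way analysis of log2 values.

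Marker levels of other cell types that the dissection could hold are set beside Fap. The 6 epicardial markers all had fold changes above 0, with 2 of 6 called higher, Tcf21 and Upk1b, and their summed level was 26.4 to 31.7 RPKM in Scx-/- and 20.4 to 22.7 RPKM in Scx+/+. Over all genes 63.8% lay above 0 and 2.82% were called higher, and neither epicardial call was kept after centring, at an unadjusted p of 0.0676 for Tcf21 and 0.0512 for Upk1b. The sum of the 11 valve mesenchyme markers was 659 to 867 RPKM in Scx-/- and 568 to 661 RPKM in Scx+/+, with Lum, a small leucine-rich proteoglycan, called higher. Of these 11 markers 6 lay above 0 and 5 below, at a median log2 fold change of 0.03 (-0.08 after centring). Higher without overlap were 3 of the 11, Lum, Dcn and Prrx1, beside 7.19% of all genes. Col1a1, a fibrillar collagen chain, was the 1 marker lower without overlap, at -0.50 (unadjusted p = 0.0746), beside 2.31% of all genes. The epicardial sums did not overlap, the mesenchymal sums overlapped by 1 library, and no marker of either list was at the fill-in value. The sums of endothelial (128 to 154 against 132 to 152 RPKM), smooth muscle (516 to 695 against 465 to 563 RPKM) and macrophage markers (32.7 to 53.4 against 41.1 to 44.7 RPKM) overlapped between Scx-/- and Scx+/+, as did those of erythroid markers (9505 to 14266 against 7812 to 14008 RPKM, with 7 of 8 above 0). Of the 8 endothelial markers 3 lay above 0 and 5 below, at a median log2 fold change of -0.14 (-0.25 after centring). Not called as deposited, Cdh5 and Kdr were lower after centring, at an unadjusted p of 0.0267 and 0.0307 in limma. That fit called 3.43% of all genes. Of the 6 smooth muscle markers 5 lay above 0 and 1 below, and Tagln was higher without overlap at 0.52 (unadjusted p = 0.0614). Of the 9 cardiomyocyte markers 5 lay above 0 and 4 below, and 1 was called lower, beside 1.06% of all genes. This was Ryr2, lower without overlap at a log2 fold change of -0.46 (unadjusted p = 0.0308, and 0.0178 after centring). Myh7 was also lower without overlap, at -0.33 (unadjusted p = 0.316). Among the 7 macrophage markers in the table Cd68, a lysosomal glycoprotein, was called higher, at means of 0.998 and 0.309 RPKM and a log2 fold change of 1.48 (unadjusted p = 0.0290), without overlap. Its value in Scx+/+ replicate 2 was the fill-in value, and the other libraries held 27 to 130 reads. Of the 7 macrophage markers 4 lay above 0 and 3 below, at a median log2 fold change of 0.14 (0.03 after centring). Of the 13826 other genes averaging 1 RPKM or more, those with the profile most like Fap over the 6 libraries were Prrx1, Moap1 and Cdo1, at Pearson r of 0.988, 0.984 and 0.980. In all, 87 of the 13826 exceeded an r of 0.9 with Fap. Prrx1, a transcription factor of mesenchyme and of the valve list, was at 3.03, 4.20 and 3.26 RPKM in Scx-/- and 2.64, 2.23 and 2.63 RPKM in Scx+/+. Fewer cells of a type and less RNA per cell cannot be told apart in these bulk samples, and the part of these markers in the Fap level was not tested.

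**Figure D2:**
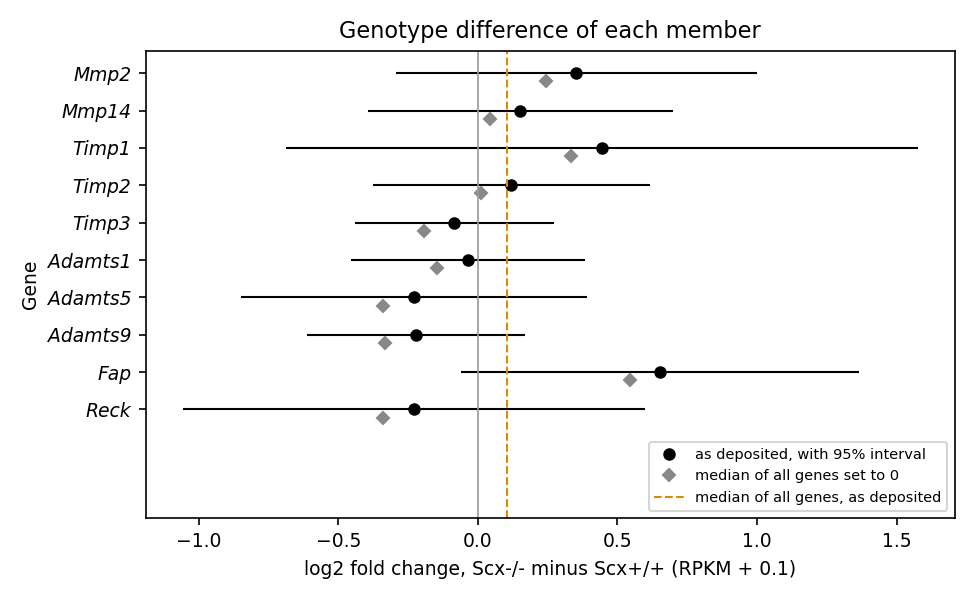
Log2 fold change, Scx-/- minus Scx+/+, of the 10 genes from limma on log2(RPKM + 0.1). Black points with lines are the values as deposited with 95% intervals, grey diamonds are the centred values, which put the median of all genes near 0, and the dashed line is the median of all genes, 0.10. Every interval includes 0, with Fap at 0.65 the highest and Adamts5, Adamts9 and Reck at -0.22 or below.

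As a list, 5 of the 10 members had a log2 fold change below 0, and their median was 0.04, beside 0.10 over all genes. After centring the members' median was -0.07. Under that scaling Mmp14 and Timp2 stood at 0.04 and 0.01, and Timp3 and Adamts1 at -0.19 and -0.15.

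Mmp2, Mmp14 and Adamts1 had their 2 lowest values in Scx-/- replicate 3 and Scx+/+ replicate 2, as did 19.5% of all genes that averaged at least 1 RPKM. Mmp2 and Mmp14 gave a Pearson r of 0.90 over the 6 libraries (exact permutation p = 0.025) and a Spearman rho of 0.83 (exact permutation p = 0.0583), and r was 0.95 without the 2 libraries farthest from the median of Mmp2. Within the genotypes, after subtraction of each genotype mean, r was also 0.90. Mmp2 and Timp2 gave r of 0.83 (exact permutation p = 0.0431) and rho of 0.89 (exact permutation p = 0.0333), and r was 0.72 without the 2 farthest libraries. Adamts1 and Reck gave r of 0.90 (exact permutation p = 0.0194) and rho of 0.83 (exact permutation p = 0.0583), and r fell to 0.62 without the 2 libraries farthest from the median of Adamts1. Adamts9 and Fap gave r of -0.79 (exact permutation p = 0.0486) and rho of -0.77 (exact permutation p = 0.103), but within the genotypes r was 0.15. These were the 4 of 45 pairs of members that had a permutation p of r below 0.05, and 0 did after adjustment, with the smallest adjusted permutation p at 0.547.

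The summed level of 9 cardiomyocyte markers was highest in the libraries where Mmp2 and Mmp14 were lowest. It was 22025, 18336 and 26639 RPKM in Scx-/- replicates 1 to 3 and 18476, 29165 and 16229 RPKM in Scx+/+ replicates 1 to 3. In Scx+/+ replicate 2 the 10 most abundant genes held 56.9% of the summed RPKM, against 30.7% to 43.9% in the other libraries. That library also had the fewest reads, and 2252 of its genes were at the fill-in value, against 1088 to 1465 in the others. The part of cardiac muscle, or of this composition, in the levels of Mmp2, Mmp14 and Adamts1 was not tested. With Scx-/- replicate 3 and Scx+/+ replicate 2 left out, the Mmp2 log2 fold change was 0.53 at an unadjusted p of 0.00852 in limma, and in that fit 8.44% of all genes were called. The genes whose profile was most like that of Mmp2 were Gnpda2, Adss and Pdia4, at Pearson r of 0.997, 0.996 and 0.993 over 6 libraries, and 372 genes exceeded 0.9.

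**Figure D3:**
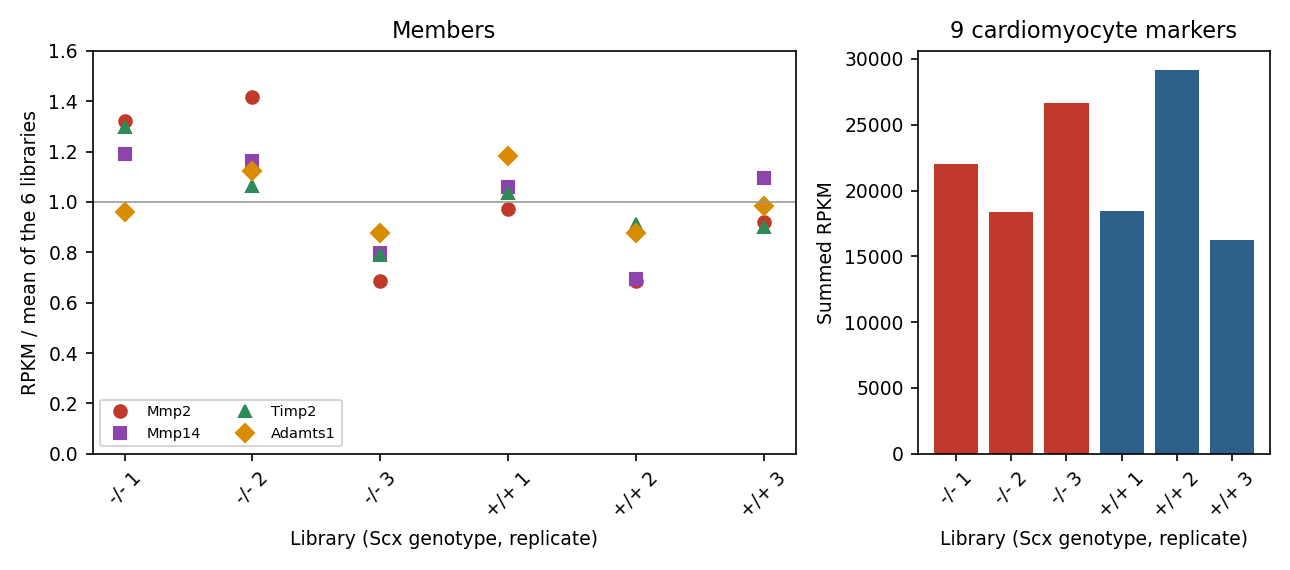
Left, RPKM of Mmp2, Mmp14, Timp2 and Adamts1 in each library divided by the mean of the gene over the 6 libraries. Right, summed RPKM of 9 cardiomyocyte markers in the same libraries (red Scx-/-, blue Scx+/+). Scx-/- replicate 3 and Scx+/+ replicate 2 have the highest marker sums, 26639 and 29165 RPKM, and all 4 genes lie below their mean there. Among the 9 markers, Myh7, Myl7, Ryr2 and Nppa do not have their 2 highest values in those libraries.

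Around the members, 10 wider lists of the protease system named 90 genes, of which 62 were in the table. Of these, 2 were called higher in Scx-/-, 0 lower and 60 were not called, with 36 fold changes above 0 and a median log2 fold change of 0.08. These are 3.23% called and 58.1% above 0, beside 3.89% and 63.8% of all genes. Both called genes were in the list of serine proteases and their regulators, where 2 of 10 passed. Htra1, a secreted serine protease that degrades matrix proteins, was at 10.2, 15.1 and 13.1 RPKM in Scx-/- and 7.43, 9.37 and 9.58 RPKM in Scx+/+, without overlap. Its log2 fold change was 0.53 (SE 0.21, adjusted p = 0.967; unadjusted 0.0332). Plau, the urokinase that generates plasmin, was at 3.28, 3.18 and 1.73 RPKM in Scx-/- and 1.78, 0.800 and 1.72 RPKM in Scx+/+, so Scx-/- replicate 3 lay within the Scx+/+ range. Its log2 fold change was 0.91 (SE 0.40, adjusted p = 0.967; unadjusted 0.0493). Neither was called after centring, at an unadjusted p of 0.106 for Htra1 and 0.0713 for Plau. In the same list Plat, the tissue plasminogen activator, averaged 13.02 RPKM and Serpine2, an inhibitor of serine proteases, 11.2 RPKM, with Serpine2 at a log2 fold change of 0.64 (unadjusted p = 0.0706).

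**Figure D4:**
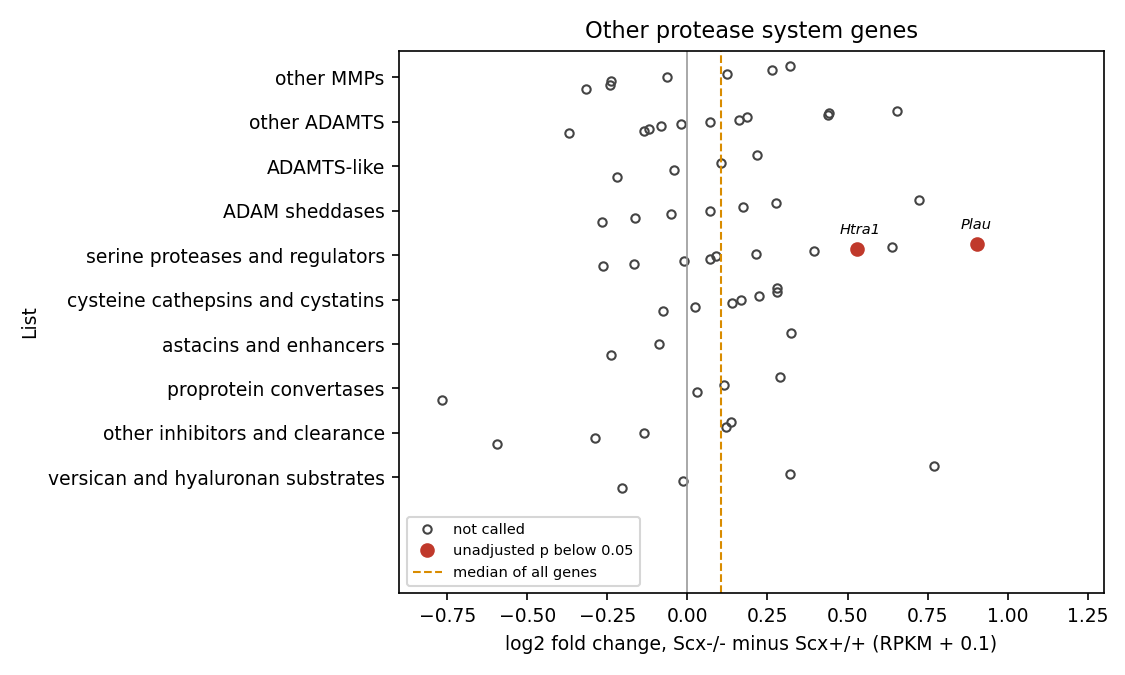
Log2 fold change, Scx-/- minus Scx+/+, of the 62 other genes of the protease system by list. Open circles are genes not called, red points the 2 called at an unadjusted p below 0.05, Htra1 at 0.53 and Plau at 0.91, and the dashed line the median of all genes, 0.10.

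In the other metalloprotease lists 0 genes were called. Of 19 other MMP genes 7 were in the table, with a median log2 fold change of -0.06, and the most abundant were the membrane-type Mmp15 at 7.57 RPKM and Mmp23 at 5.39 RPKM. Of 16 other ADAMTS genes 11 were in the table, with 6 fold changes above 0, 5 below and a median of 0.07. Adamts6 at 17.7 RPKM and Adamts19 at 9.12 RPKM were the most abundant, the former close to Adamts1. The 4 ADAMTS-like genes in the table, whose products resemble ADAMTS proteases without the catalytic domain, stayed below 1 RPKM on average, led by Adamtsl2 at 0.925 and Adamtsl3 at 0.891 RPKM. Among 7 ADAM sheddases, which release membrane proteins, Adam9 averaged 37.0 RPKM and Adam10 18.9 RPKM. The 3 astacin-family genes and enhancers in the table, which serve procollagen processing, were led by Pcolce at 6.11 RPKM and Bmp1 at 4.40 RPKM.

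The lysosomal and activating proteases, the other inhibitors and the substrates also had 0 genes called. All 7 cysteine cathepsins and cystatins were in the table, 6 of them above 0 at a median log2 fold change of 0.17, with the lysosomal protease Ctsl at 144 RPKM and the inhibitor Cst3 at 78.6 RPKM. Among 4 proprotein convertases, which cut pro-proteases to active forms, Pcsk7 averaged 3.42 RPKM and Pcsk5 1.58 RPKM. In the list of other inhibitors and clearance receptors Bsg, a membrane glycoprotein that induces MMPs, averaged 192 RPKM and the hyaluronan receptor Cd44 3.84 RPKM. Vcan, the versican cut by the ADAMTS members, was at 34.7, 44.7 and 24.9 RPKM in Scx-/- and 43.5, 21.2 and 43.1 RPKM in Scx+/+, a log2 fold change of -0.01. Its lowest libraries were again Scx-/- replicate 3 and Scx+/+ replicate 2. Has2, the hyaluronan synthase of the cushions, was at 2.31, 7.52 and 3.38 RPKM in Scx-/- and 2.52, 2.21 and 2.03 RPKM in Scx+/+, a log2 fold change of 0.77 at an unadjusted p of 0.0871. Scx-/- replicate 2 stood far above the other 5 libraries, and Scx-/- replicate 1 lay within the Scx+/+ range.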

How the data were processed

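AVC regions of 3 Scx-/- and 3 Scx+/+ embryos gave 1 library each. The authors aligned reads to mm9 with TopHat 1.4.1, counted them over Ensembl exons with easyRNASeq and deposited RPKM. By their methods, genes with few reads throughout were dropped and low values were set to a common average, found at 0.0949 RPKM for 8395 values, none of them in a member. Whether counting used strand is not given in the sources used here.

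The RPKM were analysed on the log2(RPKM + 0.1) scale, which understates changes of low genes. limma 3.58.1 in R 4.3.3 was fitted to genotype with an intensity trend, and the call was an unadjusted p below 0.05. Symbols, exon lengths and positions came from the mm9 GENCODE annotation, which held 18695 of the 18810 identifiers. Reads were recovered from RPKM, exon length and a solved depth, and 98.45% to 98.57% of values came out whole within 0.1 read; no count test was run. The rest used Python 3.11.15 (matplotlib 3.10.9, scipy 1.17.1, pandas 2.3.3 and numpy 2.4.6). The steps were tested on simulated data.

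Named are the 10 members, called genes and the 2 most abundant genes of each wider list, genes sharing exons with a member, the 3 genes with profiles most like Mmp2 and like the member of smallest p, and markers. Scx, Xist and the Vcan and Has2 library values stand beside results. The members and lists were chosen with earlier results of these data known. Alternatives were pseudocounts of 0.01 and 1, a floor of 1 RPKM on the mean, limma without trend, one-way analysis per gene, quantile normalization, centring of each library on its median log2 ratio (floor as above), a replicate block, removal of a spline trend on GC content and exon length, each library left out, and both libraries that stood apart left out. The libraries are of separate embryos, so p-values measure the spread between embryos with their dissection.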

Additional observations from a re-analysis of the deposited data

How the results depend on the processing

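The median log2 fold change of the members, 0.04, stayed within 1 SD of the library medians in all 17 alternatives, -0.09 to 0.18 with a library left out. That SD was 0.15, larger than the median, so the criterion does not settle the sign. The median fell below 0 after quantile normalization (-0.07), after centring (-0.07) and with the length and GC trend removed (-0.02). It was also below 0 without Scx-/- replicate 1, Scx+/+ replicate 2 or Scx+/+ replicate 3. Mmp2 ranged from 0.16 to 0.68 with a library left out and was 0.53 with both libraries that stood apart left out; it passed without Scx-/- replicate 3 and in the latter fit. Adamts9 passed by one-way analysis, at -0.23 on RPKM and -0.22 on log2 values, and Fap at 0.65 by limma without trend and by one-way analysis on log2 values. The direction turned with a library left out for Adamts1 (-0.14 to 0.079, above 0 without Scx-/- replicate 3 or Scx+/+ replicate 1), Mmp14 (-0.058 without Scx+/+ replicate 2, to 0.34), Timp1 (-0.17 without Scx+/+ replicate 3, to 0.90) and Timp2 (-0.047 without Scx-/- replicate 1, to 0.31), and for Timp3, at 0.0067, with both libraries left out. Members called were 1 by limma without trend, 1 and 2 by one-way analysis on RPKM and log2 values, 1 with both libraries left out and 0 to 1 with 1 left out. Genes called were 731, against 539 to 1549 with 1 library left out, the highest without Scx+/+ replicate 2, and 1587 with both left out. Genes of the wider lists called numbered 2, against 1 with a pseudocount of 0.01, a floor of 1 RPKM, quantile normalization or the length and GC trend removed, 0 by limma without trend, by either one-way analysis or after centring, 0 to 4 with 1 library left out (0 without Scx-/- replicate 2, 1 without Scx+/+ replicate 1 or 3, 4 without Scx-/- replicate 3 or Scx+/+ replicate 2) and 6 with both left out. Htra1 was called in 7 and Plau in 4 of 17 alternatives, so these counts do not stand for the same genes. The 1 gene called with the length and GC trend removed was Adam10, lower in Scx-/-. Without Scx+/+ replicate 2, 2 of the 4 genes called were higher, and with both libraries left out 5 of 6 were. Of all called genes 72.6% were higher, against 49.9% after quantile normalization, 43.5% after centring and 45.2% with the trend removed. The same-numbered libraries did not deviate together (r of 0.09, -0.22 and -0.19), and with the replicate number as a block 573 genes were called, 0 of them members. The cause of these changes was not tested. Read numbers were lowest for Timp1, Reck and Fap, where the counting error of the library with fewest reads was 11.1%, 6.85% and 5.97%. Their coefficients of variation over the 6 libraries were larger, at 42.7%, 24.6% and 34.6%.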
